A study of Mus musculus with 6 samples.

Results

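The genes Tet1, Tet2, Tdg, Mbd4, Gadd45a and Gadd45b, which act in the removal of DNA methylation, were taken by symbol from a table of 12149 genes, and all 6 were present. The table describes the RNA of single C57BL/6 blastocysts of the mouse at embryonic day 3.5. The Dep group holds 3 embryos grown from zygotes that received, by microinjection at 2 ng/µl, small RNAs from the sperm of male mice made depressive by stress. The Ctl group holds 3 embryos whose zygotes received sperm small RNAs from normal males. Every embryo thus carried an injection, and all were cultured for about 96 h before each was lysed whole for SMART-Seq v4 cDNA synthesis. The labels do not tie embryos to parents or injection days, so p-values measure the spread between these embryos, which may be partly technical.

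DNA demethylation can be passive, by replication without maintenance, or active. In the active route TET dioxygenases oxidise methylated cytosine to hydroxymethylcytosine, formylcytosine and carboxylcytosine, and the glycosylase TDG cuts out the last pair of these bases. MBD4 is a glycosylase that removes thymine or uracil mispaired with guanine at CpG sites, the products of deamination. Base excision repair then restores unmodified cytosine. GADD45 proteins are small, stress-inducible nuclear proteins that bind other proteins and have been linked to demethylation through TET and TDG. In the mouse, methylation of both parental genomes falls between fertilisation and the blastocyst. Tet3 is the form supplied by the oocyte, and Tet1 and Tet2 are the forms of the inner cell mass and of embryonic stem cells.

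The whole reads behind the table summed to between 16543356 and 21548220 per library. Dep 1 stood apart, with 691 listed genes at 0, against 5 and 23 in Dep 2 and Dep 3 and 10 to 106 in the Ctl embryos. Sex-linked RNA differed within the groups. The Y-linked gene Ddx3y had 1424, 266 and 1141 normalized counts in Dep 1, 2 and 3 and 1.18, 1160 and 2202 in Ctl 1, 2 and 3. The X-linked RNA Xist had 151, 3784 and 5589 in Dep 1, 2 and 3 and 10312, 5518 and 874 in Ctl 1, 2 and 3. Only Ctl 1 had almost no Ddx3y, and the other embryos held both RNAs, at levels whose cause was not tested. Whether a library held RNA of another embryo was not tested. Markers of the blastocyst lineages were present: 10 of 10 epiblast and 10 of 10 trophectoderm markers were measured. Of 10 markers of cumulus and granulosa cells, the maternal cells that surround the oocyte, only Star was measured, at 14.6 to 203 normalized counts in Dep and 16.7 to 52.1 in Ctl.

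The starts of 3 of the genes are shown because Tet2 was the member whose groups did not overlap, and Tet1 and Gadd45a were those that varied most between embryos. Each is a RefSeq window of 300 bases on GRCm38.p6, from 250 before to 50 after the annotated start, in lower case with GC boxes (GGGCGG on either strand) in capitals. The Tet1 window is chr10:62887275-62887574, the Tet2 window chr3:133544341-133544640 and the Gadd45a window chr6:67037358-67037657, all on the minus strand.
Tet1: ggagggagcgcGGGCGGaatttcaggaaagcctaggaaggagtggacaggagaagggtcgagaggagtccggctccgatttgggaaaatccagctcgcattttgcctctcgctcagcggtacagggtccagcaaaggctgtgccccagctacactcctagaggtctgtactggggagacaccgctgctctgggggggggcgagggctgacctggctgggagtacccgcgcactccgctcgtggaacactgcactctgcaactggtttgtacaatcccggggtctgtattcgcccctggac
Tet2: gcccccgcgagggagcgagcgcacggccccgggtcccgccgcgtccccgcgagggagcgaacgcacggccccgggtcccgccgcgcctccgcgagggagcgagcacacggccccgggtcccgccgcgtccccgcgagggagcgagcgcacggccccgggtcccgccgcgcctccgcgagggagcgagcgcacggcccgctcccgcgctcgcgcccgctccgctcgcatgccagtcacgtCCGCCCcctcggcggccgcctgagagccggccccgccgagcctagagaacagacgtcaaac
Gadd45a: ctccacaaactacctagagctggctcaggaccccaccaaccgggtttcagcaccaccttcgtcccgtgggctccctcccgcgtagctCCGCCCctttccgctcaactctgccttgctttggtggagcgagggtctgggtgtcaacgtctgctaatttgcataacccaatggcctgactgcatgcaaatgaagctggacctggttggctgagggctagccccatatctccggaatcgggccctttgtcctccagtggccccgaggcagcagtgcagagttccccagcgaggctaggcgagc

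The Tet2 window held 57 CpG dinucleotides, more than 99.8% of the 32851 RefSeq windows of this length hold, whose median is 7. Tet1 had 17 and Gadd45a 14, and the windows of the other members held 26 for Tdg, 25 for Mbd4 and 24 for Gadd45b. Windows of 5 of the 6 members, all but Tdg, contained a GC box, which 35.7% of all windows contain. Both strands were also searched for CCAAT, found in Tdg, Mbd4, Gadd45a and Gadd45b and in 37.4% of all windows. TATAAA was found in Gadd45b alone among the members, and in 13.6% of all windows. TGACGTCA was found in Tdg alone among them, and in 1.79% of all windows. The RefSeq start of Tet1 lies 21672 bases inside the 5′ end of the gene in GENCODE M21, and that of Tet2 749 bases inside. The windows of these genes are thus not at the outermost start of the gene. These matches are letters in a window and do not show that a factor binds.

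Levels of the 6 genes were first ordered per exon length, in FPKM, the reads of a gene scaled by its exon length and by the library's reads in listed genes. Tdg was highest, at 16.6, 19.8 and 27.7 FPKM in Dep 1, 2 and 3 and 18.0, 25.5 and 20.7 in Ctl 1, 2 and 3. Tet2 followed, with 9.49, 11.0 and 14.9 FPKM in Dep and 14.4, 14.2 and 17.9 in Ctl. Tet1 had 2.06, 6.93 and 9.05 FPKM in Dep and 8.35, 6.10 and 11.0 in Ctl. The order Tdg over Tet2 over Tet1 held in each of the 6 embryos with merged exons as length. With the longest annotated transcript, a length chosen after seeing the data, Tdg (31.8 FPKM) was just under Tet2 (32.9 FPKM) in Ctl 3, and Tet2 stayed above Tet1 in all 6. Below them, Gadd45b averaged 4.80 ± 2.06 FPKM in Dep and 6.25 ± 2.11 in Ctl, Mbd4 2.65 ± 1.29 and 3.96 ± 0.857, and Gadd45a 1.82 ± 1.20 and 3.72 ± 1.09 (SD, n = 3 each, Dep first). Neighbours that changed places in an embryo, with merged exons, were Tet1 and Gadd45b, in Dep 1, and Mbd4 and Gadd45a, in Ctl 3. Of the relatives outside the list, Tet3 averaged 0.525 ± 0.0613 FPKM in Dep and 0.630 ± 0.205 in Ctl, and Gadd45g 29.0 ± 14.4 and 28.1 ± 6.17 (SD, n = 3 each). Tet3 lay below all 6 genes in every embryo, and Gadd45g above Tdg in 5 of 6, the exception being Dep 1; with the longest transcript as length this held in 2 of 6.

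**Figure D1:**
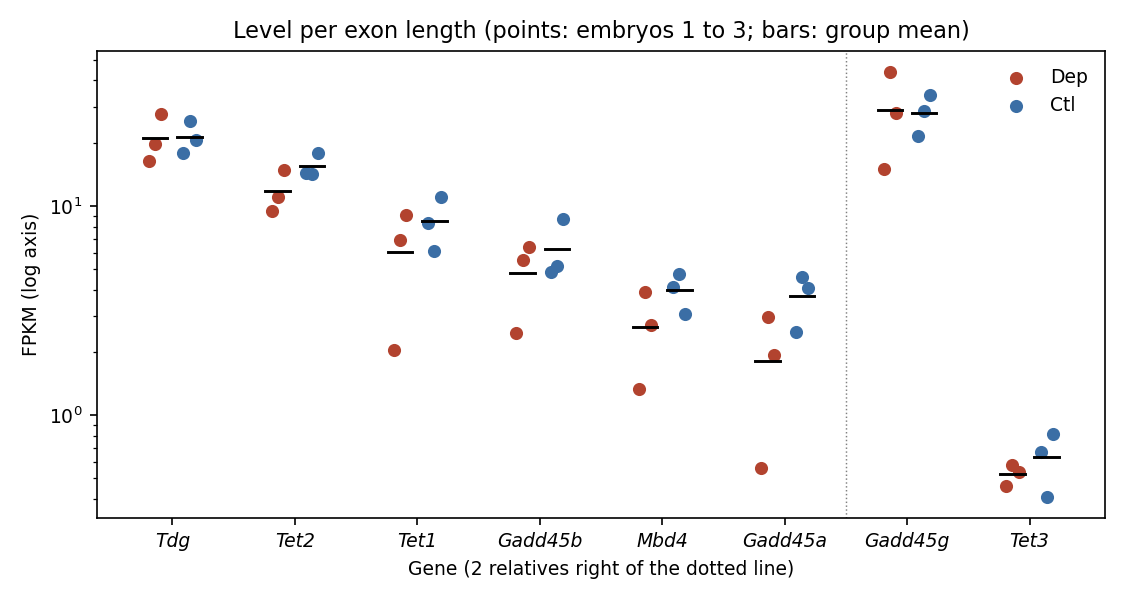
FPKM on a log axis of the 6 genes, ordered by their mean over all embryos, and of the relatives Gadd45g and Tet3; points are embryos, red for Dep and blue for Ctl, and bars are group means. Tdg and Tet2 lie at 9.49 FPKM or more in every embryo, whereas Tet1 reaches down to 2.06 and Gadd45a to 0.560 in Dep 1.

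The study asks whether small RNAs from the sperm of stressed males alter gene expression in the embryo, here that of the demethylation genes. By limma, every one of the 6 had an adjusted p of 0.9997, so none passed. The number past the adjusted threshold of 0.05 was 0 of 6 by limma, edgeR and DESeq2, and 0 of 6 had an unadjusted p under 0.05 by any of the 3 tools. Over all 12149 genes limma called 0%, and 1.85% had an unadjusted p under 0.05. edgeR also called 0 genes, and DESeq2 1. Each of the 6 genes had a lower mean log2 value in Dep, a direction shared by 51.8% of all genes, and their median log2 fold was -0.56 against -0.02 over all genes. Without Dep 1 the median was -0.25 with 5 of 6 lower, against 0.02 over all genes, of which 5839 of 12149 were lower. Log2 folds here are Dep over Ctl on the log2(normalized count + 1) scale. The added 1 shrinks the folds of low genes, though little for Gadd45a, at -1.26 against -1.28 with 0.1 added instead. By DESeq2 the folds were smaller in size, at -1.06 for Gadd45a, -0.56 for Tet1 and -0.61 for Mbd4, against -1.26, -0.70 and -0.69 by limma.

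**Figure D2:**
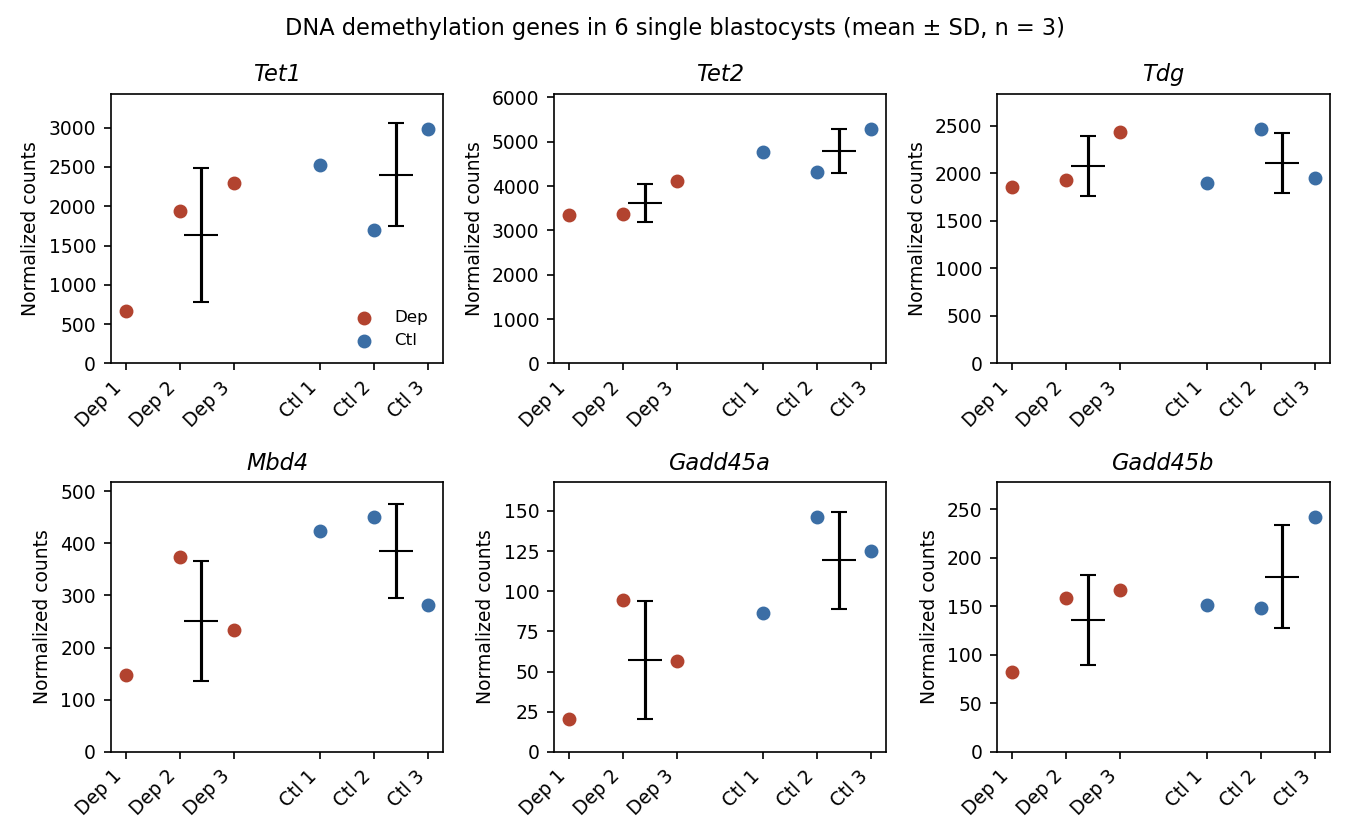
Normalized counts of each gene in the 6 embryos, Dep in red at left and Ctl in blue at right; black bars give the group mean ± SD (n = 3). Only for Tet2 do all Dep embryos (3346 to 4105) lie below all Ctl embryos (4310 to 5295), and Dep 1 has the lowest point in each panel.

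Tet2 (ENSMUSG00000040943), a dioxygenase that lacks the CXXC DNA-binding domain of its relatives, spans 133463679 to 133545139 on chromosome 3 of GRCm38, minus strand. It had 3346, 3380 and 4105 normalized counts in Dep 1, 2 and 3 and 4771, 4310 and 5295 in Ctl 1, 2 and 3. All Dep embryos thus lay below all Ctl embryos, as they did for 3.8% of all genes; groups without overlap in either direction made up 6.9%. The means were 3610 ± 428 in Dep and 4792 ± 493 in Ctl (SD, n = 3 each). The log2 fold was -0.41 ± 0.24 (SE; limma, unadjusted p = 0.124). The 95% interval runs from a fold of 0.517 to one of 1.10, so it includes no difference. Without Dep 1 the log2 fold was -0.36 (limma, unadjusted p = 0.199). With the replicate number as a block the unadjusted limma p was 0.0592 (adjusted p = 0.941).

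Tet1 (ENSMUSG00000047146; chromosome 10, 62804570 to 62908996, minus strand), the CXXC-domain dioxygenase abundant in pluripotent cells, was the more variable of the Tet pair. It had 667, 1942 and 2291 normalized counts in Dep 1, 2 and 3 and 2528, 1697 and 2988 in Ctl 1, 2 and 3. Dep 1 was the low sample, and Dep 2 and Dep 3 lay within the range of the Ctl embryos. The log2 fold was -0.70 ± 0.45 (SE; limma, unadjusted p = 0.146), with a 95% interval of the fold from 0.309 to 1.22. Without Dep 1 it was -0.15 ± 0.31. Leaving out Dep 3 instead gave -1.04, with an unadjusted limma p of 0.0459 and an adjusted p of 0.838. The level of Tet1 per exon length was 0.217 of that of Tet2 in Dep 1, 0.627 and 0.609 in Dep 2 and 3, and 0.430 to 0.616 in the Ctl embryos.

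Tdg (ENSMUSG00000034674; chromosome 10, 82629828 to 82650799, plus strand), the glycosylase of oxidised methylcytosine, had the smallest span over the 6 embryos, its highest value being 1.33 times its lowest; within groups Tet2 varied less. Tdg had 1859, 1928 and 2438 normalized counts in Dep 1, 2 and 3 and 1894, 2469 and 1954 in Ctl 1, 2 and 3, and the groups covered nearly the same range. The log2 fold was -0.02 ± 0.26 (SE), and its sign turned when Dep 1, Dep 2 or Ctl 2 was left out. Folds below 0.659 or above 1.47 lay outside its 95% interval. Reads of Tdg may be exchanged with those of the processed pseudogenes Tdg-ps and Gm9855, of whose 31-base words 69.2% and 83.4% occur in Tdg transcripts. The cDNA kit does not mark strand, and exons of Tdg share 367 bases with Glt8d2 on the opposite strand. Opposite-strand genes also share 337 exon bases with Gadd45a, 264 with Mbd4 and 43 with Tet2. Reads from these stretches cannot be assigned to a single gene. Of these pseudogenes and opposite-strand genes only Glt8d2 is among the listed genes, so the others have no values here.

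Mbd4 (ENSMUSG00000030322; chromosome 6, 115840697 to 115853371, minus strand), which encodes the glycosylase of deaminated CpG sites, had 147, 374 and 233 normalized counts in Dep 1, 2 and 3 and 424, 450 and 282 in Ctl 1, 2 and 3. Dep 1 and Dep 3 lay below every Ctl embryo, and Dep 2 lay above Ctl 3. For 1878 of 12149 genes Dep 1 and Dep 3 both lay below, or both above, every Ctl embryo. The log2 fold was -0.69 ± 0.46 (SE; limma, unadjusted p = 0.168), and -0.35 without Dep 1. The ratio of Mbd4 to Tdg per exon length was 0.0804, 0.198 and 0.0975 in Dep 1, 2 and 3 and 0.228, 0.186 and 0.147 in Ctl 1, 2 and 3. These ratios overlapped between the groups.

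Gadd45a (ENSMUSG00000036390; chromosome 6, 67035096 to 67037457, minus strand), a DNA damage-inducible target of p53, had the lowest values. It had 20.6, 94.3 and 56.5 normalized counts in Dep 1, 2 and 3 and 86.4, 146 and 125 in Ctl 1, 2 and 3. Dep 2 lay above Ctl 1, so the groups overlapped, while Dep 1 and Dep 3 lay below all Ctl embryos. These 2 embryos lay below or above all Ctl embryos for 1878 of 12149 genes. The value of Dep 1 rests on 17 reads, for which an exact Poisson interval (95%, counting error only) runs from 9.90 to 27.2. Set against the Ctl embryo of the same number, Gadd45a was lower in all 3 Dep embryos, as were Mbd4 and Tet2, and as were 12.6% of all genes; with this number as a block the limma p of Gadd45a was 0.101, unadjusted. The log2 fold was -1.26 ± 0.76 (SE; limma, unadjusted p = 0.128), the most negative of the 6, with a 95% interval of the fold from 0.130 to 1.34. Without Dep 1 it was -0.67, and in the authors' deposited table -1.06.

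Gadd45b (ENSMUSG00000015312; chromosome 10, 80930073 to 80932204, plus strand), induced by stress and TGF-beta signals, had 82.6, 159 and 167 normalized counts in Dep 1, 2 and 3 and 151, 149 and 242 in Ctl 1, 2 and 3. Dep 2 and Dep 3 lay among the Ctl embryos and Dep 1 below them. The log2 fold was -0.43 ± 0.54 (SE; limma, unadjusted p = 0.437), and -0.11 without Dep 1. Per exon length, Gadd45a stood at 0.225, 0.535 and 0.305 of Gadd45b in Dep 1, 2 and 3 and at 0.514, 0.886 and 0.467 in Ctl 1, 2 and 3. Gadd45a thus lay below Gadd45b in every embryo, though with the longest transcript as length it stood above it in Ctl 2, at 6.64 against 6.43 FPKM.

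**Figure D3:**
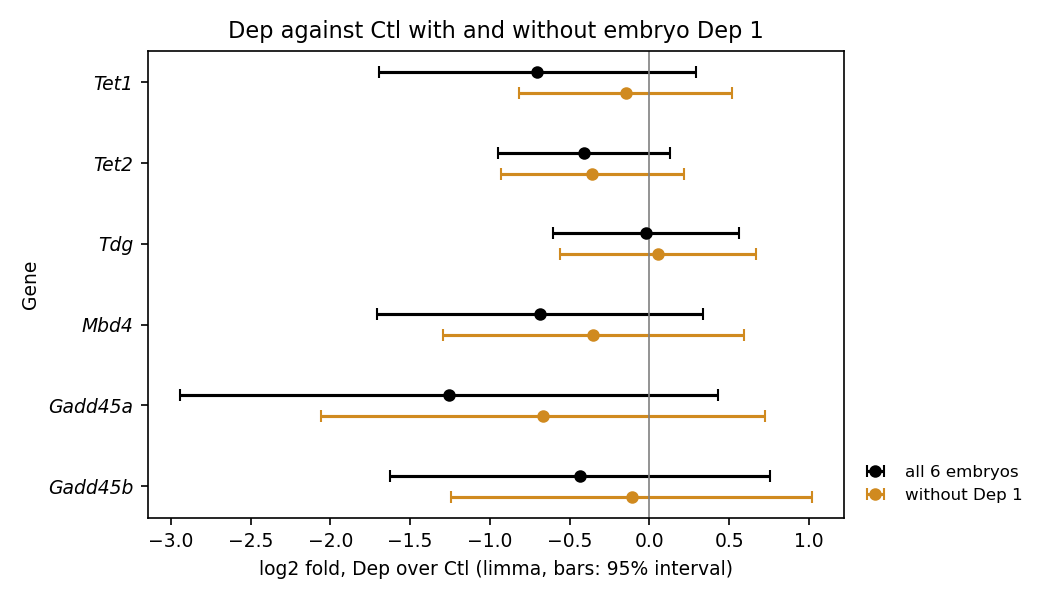
Log2 fold of Dep over Ctl for each gene (limma; bars are 95% intervals), in black over all 6 embryos and in orange without Dep 1. Every interval includes 0; without Dep 1 the value of Tet1 is -0.15 and that of Tet2 -0.36, against -0.70 and -0.41 over all embryos.

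Across embryos the clearest shared feature was Dep 1, which held the lowest value of each of the 6 genes. Over all genes the lowest value fell in Dep 1 for 29.1%, and for 26.4% of the 10054 genes with a mean of 80 normalized counts or more. The margin differed by gene. Gadd45a in Dep 1 lay 63.4% below the next lowest embryo, Tet1 60.7%, Gadd45b 44.4% and Mbd4 37.1%. For Tdg and Tet2 the margin was 1.84% and 1.02%, so these genes hardly set Dep 1 apart. All 6 also had their lowest value in Dep 1 after TMM scaling and as a plain share of the library's reads, where 29.1% and 36.1% of all genes did. Of the relatives, Gadd45g was lowest in Dep 1 (372 normalized counts, against 536 to 934 in Dep 2 and 3 and 499 to 701 in Ctl), and Tet3 was lowest in Ctl 2.

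Markers of the epiblast and trophectoderm also set Dep 1 apart. Of 10 epiblast markers 8 were lowest in Dep 1. Among them, Fgf4 was at 0 and Tdgf1 at 17.0 normalized counts, against 65.5 to 445 and 881 to 2402 elsewhere. The pluripotency gene Nanog was lowest there by a small margin, at 2463 against 2711 to 5815 elsewhere. Pou5f1, at 2767 in Dep 1, lay within its range of 1977 to 4256 elsewhere. Zfp42 was highest in Dep 1, at 5741 against 3756 to 4822 elsewhere. The mean log2 level of this list was 7.67 in Dep 1, against 9.84 and 9.76 in Dep 2 and 3 and 9.40 to 9.84 in Ctl, and its summed values were 12114 to 18730 normalized counts in Dep and 13104 to 15322 in Ctl. Of 10 trophectoderm markers, 6 were highest and 1 lowest in Dep 1. They summed to 106331 in Dep 1, against 42619 and 45878 in Dep 2 and 3 and 49680 to 74219 in Ctl, and Cdx2, a trophectoderm factor, had 3795 in Dep 1 against 1725 to 2652 elsewhere. The primitive endoderm list, 9 of 10 measured, was mixed, with 4 genes lowest in Dep 1 and Dab2 highest there. Its sum was highest in Dep 1, at 26042, against 21364 and 25197 in Dep 2 and 3 and 20882 to 24852 in Ctl, and Dab2 made up 22085 of the 26042 in Dep 1. Its mean log2 level was lowest there, at 6.27, against 10.05 and 10.04 in Dep 2 and 3 and 8.97, 9.75 and 6.82 in Ctl 1, 2 and 3. Sox17, Sox7 and Gata4 were at 0 in Dep 1, and Gata4 also in Ctl 3. Ctl 3 had Sox17 at 0.883 and Sox7 at 9.71 normalized counts. Pdgfra and Cubn were lowest in Ctl 3, at 41.5 and 183 against 71.6 and 268 in Dep 1. Low values of these genes were thus not particular to Dep 1. The part of these differences in the low values of Dep 1 was not tested. In a whole embryo, fewer cells of a type and less RNA per cell cannot be told apart.

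**Figure D4:**
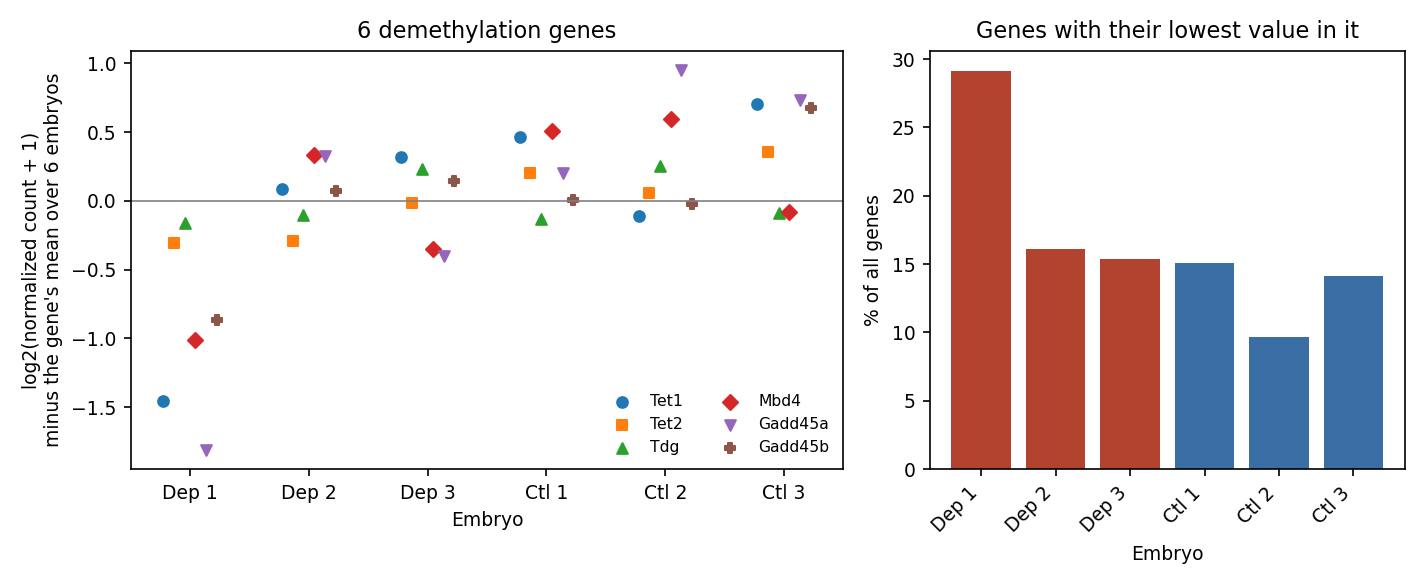
Left, log2 level of each of the 6 genes in each embryo minus the gene's own mean over the 6 embryos; right, the share of all 12149 genes with their lowest value in each embryo. In Dep 1 the 6 genes lie from -0.16 (Tdg) to -1.81 (Gadd45a), and 29.1% of all genes have their lowest value there.

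Likeness of the members' patterns over the embryos was measured as the root mean square difference of centred log2 levels over the 6 embryos, so 0 is an identical pattern. Tdg and Tet2 had the smallest difference of the pairs, at 0.28, followed by Gadd45b with Tet1 and with Tet2, both at 0.32, and Gadd45a and Tdg the largest, at 0.88. Such values depend on how much a gene varies: 12.9% of the genes compared lay nearer to Tdg than Tet2 did, but only 1.35% lay nearer to Gadd45a than Mbd4 did, at a difference of 0.50. Among the protein-coding genes with a mean of 100 normalized counts or more, the nearest to Tet1 were Edem3 and Erlin2, at 0.12 and 0.15. Nearest to Tet2 were Parpbp and Slc20a1, both at 0.08, and to Tdg Gabpb1 and Gnb2, at 0.05 and 0.06. For Mbd4 these were Pds5a and Mfsd4b1, both at 0.16, for Gadd45a St5 and Mcu, at 0.23 and 0.30, and for Gadd45b Cyp4f39 and Numb, at 0.07 and 0.09. No member was among the 2 nearest genes of another, but Gadd45a, below that mean, was not a candidate. With so many candidates, this says little about whether the members run together. The comparison covered 9251 or 9252 genes per member, and the median difference over them ran from 0.46 for Tdg to 1.01 for Gadd45a.

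Base excision repair completes active demethylation, and its genes went in both directions, more of them higher in Dep, in a split that changed with the embryos kept. Of 18 measured genes of 20, 0 passed the limma threshold in either direction, 0 had an unadjusted p under 0.05, and 13 had a higher and 5 a lower mean log2 value in Dep, where 51.8% of all genes were lower. Their median log2 fold was 0.14, against -0.02 over all genes, and 6 of 18 had their lowest value in Dep 1, as did 29.1% of all genes. The split depended on single embryos, as 11 genes were lower without Dep 2 and 8 without Ctl 1. By edgeR and by DESeq2, 4 were lower. Ung, the uracil glycosylase, averaged 228 ± 153 normalized counts in Dep and 281 ± 62.3 in Ctl, and Apex1, the abasic site endonuclease, 214 ± 81.1 and 154 ± 76.9. The repair polymerase gene Polb had 1002 ± 348 and 932 ± 206, and Lig3, a ligase that works with Xrcc1, 1166 ± 441 and 1115 ± 41.2 (SD, n = 3 each, Dep first). Xrcc1, the scaffold, had 1145 ± 426 in Dep and 995 ± 150 in Ctl. Parp1, a sensor of strand breaks, had 2556, 3413 and 3387 in Dep 1, 2 and 3 and 3530, 3675 and 3430 in Ctl 1, 2 and 3. Its groups did not overlap, with a log2 fold of -0.20 ± 0.25 (SE; limma, unadjusted p = 0.445), and Dep 1 was again lowest. It was the one gene of 18 without overlap, which 6.9% of all genes showed.

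Partners of TET proteins and enzymes of their cofactors were split, 3 of 8 measured genes being higher and 5 lower in Dep, with 0 past the limma threshold, 0 at an unadjusted p under 0.05, and a median log2 fold of -0.02. This split moved to 2 lower with edgeR, with DESeq2 or without Ctl 1, and to 3 lower without Dep 2. Ogt, an O-GlcNAc transferase that binds TET proteins, was the 1 gene of 8 whose groups did not overlap, against 6.9% of all genes. It had 2151, 2959 and 3056 normalized counts in Dep 1, 2 and 3 and 4469, 3850 and 3223 in Ctl 1, 2 and 3, a log2 fold of -0.50 ± 0.27 (SE; limma, unadjusted p = 0.0875, adjusted p = 0.9997). Idh1 and Idh2, which make the TET cosubstrate alpha-ketoglutarate, had 5028 ± 1224 against 4596 ± 1201 and 2306 ± 653 against 1942 ± 629 (SD, n = 3 each, Dep against Ctl).

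Partners of GADD45 proteins and stress-inducible genes of the p53 and ATF4 pathways showed no common direction. Of 13 measured genes of 14, 6 were higher and 7 lower in Dep, 0 passed the limma threshold, and the median log2 fold was -0.05. Dep 1 was lowest for 7 of 13, and for 29.1% of all genes. Ing1, an adaptor for Gadd45a, had 1668 ± 340 normalized counts in Dep and 1585 ± 170 in Ctl. The p53 targets Cdkn1a, Mdm2 and Ccng1 had log2 folds of -0.31, -0.23 and -0.16, and Ddit3, a factor of endoplasmic reticulum stress, 0.48. Sesn2 and Trib3 of the same list had 0.62 and -0.73. Cdkn1a, Mdm2 and Ccng1 were lowest in Dep 1, at 1643, 1684 and 8886 normalized counts, and Ddit3 was highest there, at 1518. For each of these genes Dep 2 and Dep 3 lay within the range of the Ctl embryos. Without Dep 1, 5 of the 13 genes were lower. Ppp1r15a, also called Gadd34 but no relative of the Gadd45 family, had 259, 390 and 335 in Dep 1, 2 and 3 and 518, 829 and 558 in Ctl 1, 2 and 3. Its unadjusted limma p was 0.0273 (adjusted p = 0.9997), and no other of the 13 genes had one under 0.05, as 1.85% of all genes did. By edgeR and DESeq2, too, 0 genes of these 3 lists passed the adjusted threshold.

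**Figure D5:**
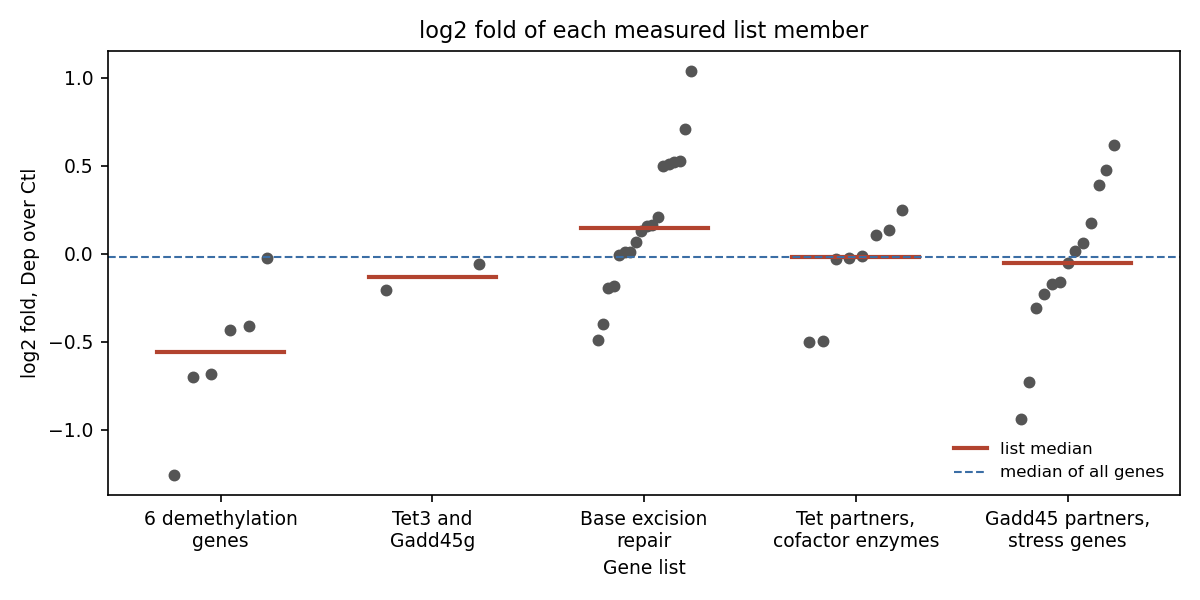
Log2 fold of Dep over Ctl for every measured gene of the 5 lists (points, sorted within each list); red bars are list medians and the dashed line is the median of all 12149 genes. The medians are -0.56 for the 6 genes (-0.25 without Dep 1), 0.14 for base excision repair, -0.02 for TET partners and cofactor enzymes and -0.05 for the GADD45 and stress list.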

How the data were processed

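RNA of 6 single blastocysts was sequenced, 3 Dep and 3 Ctl, mapped to groups by title. HISAT2, Cufflinks 2.2.1 and mm10 are named, without a role, per the submitters' processing notes; how reads were counted, and on which annotation, is not stated there. The authors deposited 1 signal value per gene and library, which by its values is the number of reads over a size factor of that library. Per the file headers the authors' table also has the mean, the log2 fold change and its standard error, the test's score, and a p-value, raw and adjusted, under the column names DESeq2 uses. Dividing each column by its step gave whole reads for 100% of values, within 0.01; DESeq2 on them matched the deposited log2 folds within 4.26e-08. The lowest mean is 14.2 normalized counts, so depth means reads in listed genes. No molecular identifiers are described.

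Symbols, positions and merged exon lengths came from GENCODE M21 (GRCm38, which mm10 names), matched by Ensembl identifier for 11829 of 12149 genes; promoter windows came from RefSeq and matched all 6 members. The fit was limma 3.58.1 with a mean-variance trend on log2(normalized count + 1), Benjamini-Hochberg adjusted over all genes, checked on simulated data, with no filter beyond the deposited one. edgeR 4.0.16 (quasi-likelihood), DESeq2 1.42.0, other scalings, pseudocounts, a minimum mean, no trend, a replicate block and each embryo left out were alternatives, in R 4.3.3; tables and figures used Python 3.11.15. Across genes, same-numbered embryos deviated from their group means together, with correlations of 0.133, 0.151 and 0.129. As each is over 0.1, embryos were treated as paired by number in 1 alternative, though no label states a pairing. The correlations are small and come from these same data. Deviations from a mean of 3 embryos sum to 0, so some matching of embryos has to correlate positively.

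The members and gene lists were chosen with earlier results of these data known. All 6 members are named, with context genes chosen by role and the 2 genes of nearest profile for each member. Neil2, Fen1, Cxxc4, Slc23a1, Atf3, Foxa2 and 9 of the cumulus and granulosa markers were not analysed here. Fgf4, Tdgf1, Pou5f1, Zfp42, Dab2, Sox7, Gata4, Pdgfra, Cubn, Sesn2, Trib3 and Star were named after their values were seen.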

Additional observations from a re-analysis of the deposited data

How the results depend on the processing

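For the 6 genes the log2 folds kept their sign under every alternative that could be run, except that of Tdg, and no alternative brought a member past the adjusted threshold. Gadd45a, below a mean of 100 normalized counts, has no value under that filter. Leaving out 1 embryo gave ranges of -1.04 to -0.15 for Tet1, -0.51 to -0.34 for Tet2, -0.14 to 0.10 for Tdg, -1.02 to -0.35 for Mbd4, -1.74 to -0.67 for Gadd45a and -0.61 to -0.11 for Gadd45b; without Dep 1, Dep 2 or Ctl 2 Tdg stood at 0.05, 0.03 and 0.10. Under the replicate block no member was called (lowest unadjusted p 0.0592, Tet2), and 420 of all genes with the block, against 225 without it, had an unadjusted p under 0.05. DESeq2 called 1 gene of all where limma called 0; the cause was not tested. Genes whose groups did not overlap numbered 838, and 1573 to 2535 with an embryo left out, where fewer values have to be ordered. Base excision repair genes lower in Dep numbered 5, then 4 with edgeR, 4 with DESeq2 and 6 to 11 with an embryo left out. TET partner genes lower in Dep numbered 5, then 2 with edgeR, 2 with DESeq2 and 2 to 6 with an embryo left out; the cause was not tested. With the longest transcript as length, an alternative chosen after seeing the data, mean levels were 25.1 FPKM for Tet2, 32.8 for Tdg and 4.83 for Mbd4, against 13.7, 21.4 and 3.30 with merged exons, and the order of the 6 means was the same. Read number limits Gadd45a most, with 17 to 95 reads per Dep embryo and 73 to 175 per Ctl embryo.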
